A study of Rattus norvegicus with 6 samples.

Results

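The genes described here encode chemokines and other secreted inflammatory cytokines, and they were read in rat kidney epithelial cells with and without streptozotocin (STZ). They were chosen by name from a list of 10 genes: Ccl2, Ccl7, Ccl20, Cxcl1, Cxcl10, Cxcl12, Cx3cl1, Csf1, Il6 and Lif. Matching these symbols to the first column of the count table found 9 of the 10 among its 18930 rows, and Cxcl12 was not analysed here.

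Chemokines are small secreted proteins that draw leukocytes along a concentration gradient by binding G protein-coupled receptors, and they are classed by the spacing of their first cysteines (CC, CXC and CX3C). Ccl2 and Ccl7 attract monocytes, Ccl20 attracts lymphocytes and immature dendritic cells, Cxcl1 attracts neutrophils, and Cxcl10 attracts activated T cells. Csf1 sustains monocytes and macrophages, while Il6 and Lif signal through receptor complexes that share the Il6st chain and activate Stat3. In the kidney, injured tubular epithelium is known as a source of several of these proteins, many of which are controlled by NF-kB, by AP-1 or, for Cxcl10, by interferon.

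RNA was sequenced from NRK-52E cells, an established wild-type line derived from normal rat kidney. The Control group held 3 samples of vehicle-treated cells, and the STZ group held 3 samples of cells kept in STZ at 10 mM for 24 h. STZ is a DNA-alkylating nitrosourea joined to glucosamine. All samples came from this single line, which contains no leukocytes that could respond to the chemokines, and whether they were separate cultures is not given, so the p-values measure the spread between these samples.

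Total counts ranged from 10430924 to 12737131 in Control and from 11658253 to 15191349 in STZ. Counts are given below either as reads or as normalized counts, which are reads scaled by TMM to the mean library size. Of the markers of leukocytes listed, 10 of 12 had a row, and without Cd14 their summed level was 1.82 to 2.92 CPM (reads scaled to library size) in Control and 2.69 to 3.05 CPM in STZ. The pan-leukocyte marker Ptprc had at most 1 read in a sample. Cd14 itself had 1077 to 1792 reads per sample and rose by 0.26 on the log2 scale. Endothelial markers, 4 of 5 with a row, summed to 0.455 to 0.754 CPM in Control and 0.8 to 1.13 CPM in STZ. Fibroblast markers, 7 of 8 with a row, summed to 99.7 to 111 CPM in Control and 56.2 to 66.8 CPM in STZ, mostly from Col3a1 and Col1a1. Epithelial markers, 5 of 8 with a row, summed to 1110 to 1180 CPM in Control and 1600 to 1620 CPM in STZ. Among them Krt8 had 11691 to 14950 reads in Control and 18562 to 24040 in STZ, and rose by 0.48 on the log2 scale (edgeR adjusted p = 1.82e-15). Cdh1 had 22 to 35 reads in Control and 16 to 25 in STZ, with overlapping groups and a log2 fold change of -0.69 (edgeR adjusted p = 0.0296). Krt18 had at most 3 reads, so the epithelial label rested here on Krt8. The part of these markers in the results below was not tested.

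Of the 9 genes, Ccl2, Ccl7, Cxcl10, Csf1 and Lif rose and Cxcl1 fell with STZ at an adjusted p under 0.05 by the quasi-likelihood test of edgeR, adjusted over the 11870 genes tested (SE below is the standard error of a log2 fold change). The other 3, Ccl20, Cx3cl1 and Il6, never exceeded 7 reads in a sample and fell under the filter on low counts. Of all genes tested, 25.9% were higher and 25.1% lower at the same threshold. Ccl2, Ccl7 and Cxcl10 also had an absolute log2 fold change over 1, the second threshold for differential expression, which 2.26% of all genes tested passed upwards. Ccl2 and Ccl7 reached the filter's level of 0.82 CPM in 3 STZ samples and in no Control sample. A gene that enters the test in this way has to differ, so the number of rising genes is not evidence about the group of genes as a whole. With at least 10 reads required in every sample, 4 of the genes remained, of which Cxcl10, Csf1 and Lif were higher and Cxcl1 was lower. That fit placed 5892 of 11297 genes past the threshold in either direction. In bulk RNA, fewer cells that transcribe a gene and less RNA per cell cannot be told apart.

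**Figure D1:**
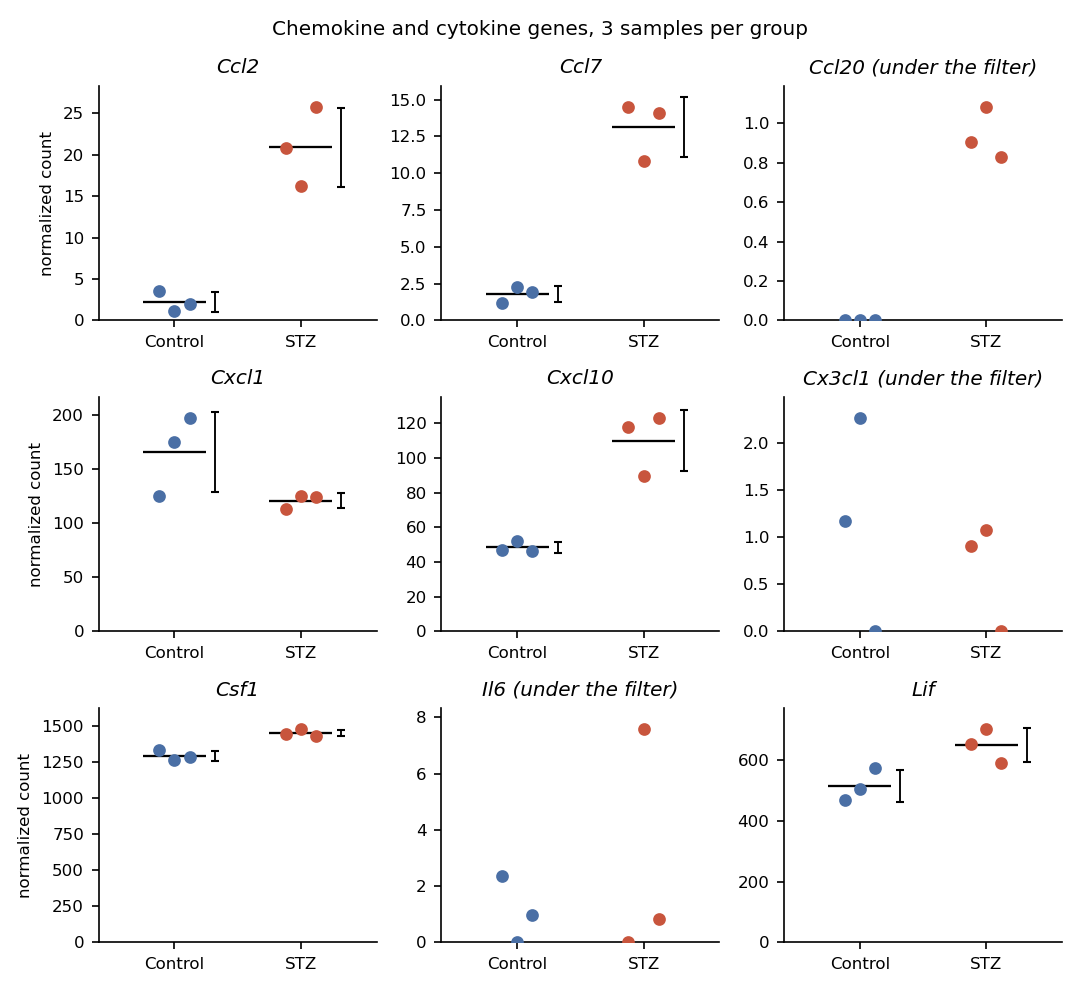
Normalized counts of the 9 genes in each of 3 Control (blue) and 3 STZ (red) samples, each panel with its own linear axis from 0. Horizontal lines are means and bars beside them are ± SD, drawn only for the 6 genes that passed the filter on low counts. In those 6 panels the groups do not overlap, with STZ below Control only for Cxcl1. For Ccl2 and Ccl7 this follows from how they entered the test. Without overlap, STZ lay above Control in 28.6% of all genes tested and below it in 27.7%.

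Among the CC chemokines, Ccl2 had the largest rise. It had 3, 1 and 2 reads in the Control samples and 23, 15 and 31 in the STZ samples. All STZ samples lay above all Control samples, which follows from how the gene entered the test. The mean was 2.20 ± 1.21 normalized counts in Control (SD, n = 3) and 20.9 ± 4.76 in STZ (SD, n = 3). In a fit with no filter on low counts, where entry does not depend on the group, the log2 fold change was 3.22 (SE 0.50, edgeR adjusted p = 1.12e-09). From the 6 Control reads and 69 STZ reads alone, the ratio was 9.84, with an exact 95% interval of 4.3 to 27.7 that covers counting error only.

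Ccl7, the gene next to Ccl2 in the rat RefSeq annotation (GRCr8) and a ligand of overlapping receptors, followed the same direction. Its reads were 1, 2 and 2 in Control and 16, 10 and 17 in STZ. The groups did not overlap, as follows from the way it entered the test. With no filter the log2 fold change was 2.79 (SE 0.60, edgeR adjusted p = 2.49e-05), and the ratio from 5 and 43 reads was 7.36 (exact 95% interval 2.92 to 23.8, counting error only). Within the STZ samples, Ccl2 had 1.44, 1.5 and 1.82 reads for each read of Ccl7, and STZ replicate 2 was the lowest STZ sample for both genes. Without STZ replicate 1 or STZ replicate 3, Ccl7 no longer passed the filter.

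Ccl20 had no read in the Control samples and 1 read in each STZ sample. The 3 reads lie at the limit of 3 counts that a total of 0 allows, so no fold change is given. With no filter on low counts, the edgeR adjusted p was 0.302. A change of Ccl20 was not detectable at this depth.

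**Figure D2:**
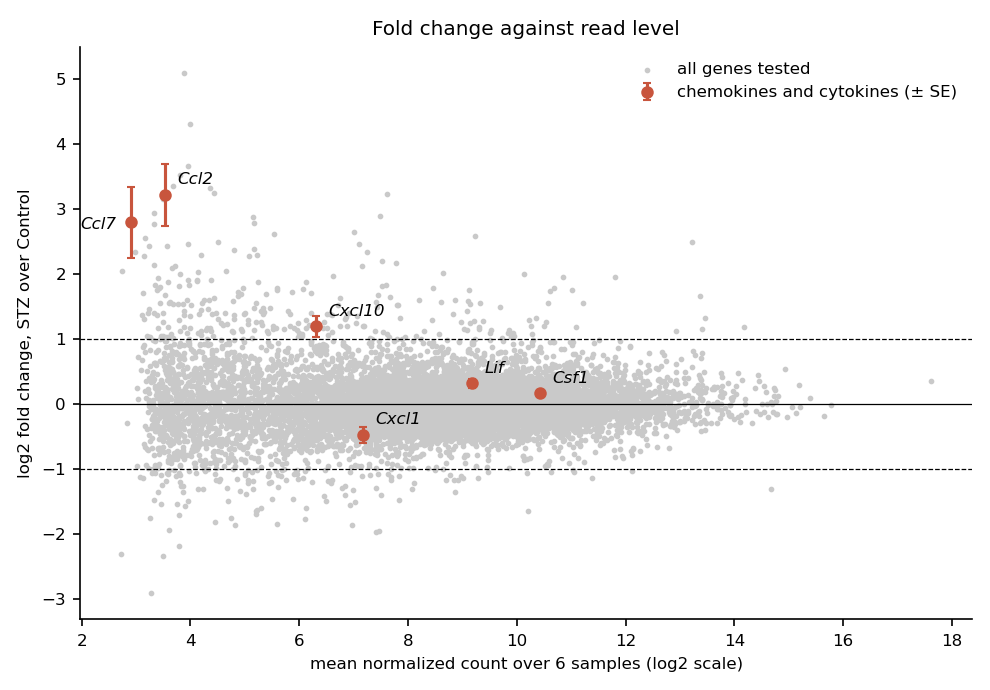
Log2 fold change of STZ over Control against the mean normalized count (log2 scale) for the 11870 genes tested (grey) and the 6 chemokine and cytokine genes that passed the filter (red, ± standard error). Dashed lines mark a log2 fold change of 1 in either direction; Ccl2 and Ccl7 sit among genes with the fewest reads, and Csf1, with the most reads of the 6, has the smallest fold change.

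The CXC chemokines moved in opposite directions. Cxcl10 had 46.9, 52.1 and 46.6 normalized counts in Control and 118, 89.8 and 123 in STZ. The lowest STZ sample, replicate 2, lay well above the highest Control sample, and STZ lay above Control without overlap in 28.6% of all genes tested. The log2 fold change was 1.20 (SE 0.16, edgeR adjusted p = 3.33e-08), or 2.29-fold. In GRCr8 the span of Cxcl10 overlaps that of Art3, an ADP-ribosyltransferase gene, which had at most 1 read in any sample. Its neighbours there are Cxcl11 and Cxcl9, which encode ligands of the same receptor. Cxcl11 had 5 reads in STZ replicate 3 and 1 read in Control replicate 3, with none in the other samples.

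Cxcl1 had 126, 175 and 197 normalized counts in the Control samples and 113, 125 and 125 in the STZ samples. The groups were separated by less than 1 normalized count, and the Control samples were spread more widely (SD 36.7) than the STZ samples (SD 6.89). STZ lay below Control without overlap in 27.7% of all genes tested. The log2 fold change was -0.47 (SE 0.13, edgeR adjusted p = 0.00174), under the fold-change threshold. Without Control replicate 3 it was -0.32 (edgeR adjusted p = 0.0494), and without Control replicate 1 it was -0.63. The ratio of Cxcl10 reads to Cxcl1 reads within a sample, which needs neither library scaling nor gene length to compare samples, was 0.374, 0.297 and 0.236 in Control and 1.04, 0.716 and 0.987 in STZ. The groups did not overlap in this ratio, which follows from the separation of each of the genes and adds no further evidence.

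Because Cxcl1 fell while Ccl7 and Cxcl10 rose, the sequences before their start sites are shown for comparison. Promoter sequences from RefSeq (GRCr8) matched 7 of the 10 names, all but Ccl2, Csf1 and Lif, and the 250 bases before the annotated start are given on the strand of the gene, 5′ to 3′. Capitals mark matches, on either strand, to the kappaB consensus of NF-kB, to the AP-1 motif TGANTCA and to the core of the interferon-stimulated response element, taken as GAAA repeated after a gap of 2 bases.
Ccl7 (chr10:67513845-67514094, plus strand): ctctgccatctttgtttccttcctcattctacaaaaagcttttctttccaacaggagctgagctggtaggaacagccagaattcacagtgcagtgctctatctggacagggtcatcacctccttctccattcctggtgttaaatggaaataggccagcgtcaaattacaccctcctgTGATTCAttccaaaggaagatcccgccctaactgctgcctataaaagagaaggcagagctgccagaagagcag
Cxcl1 (chr14:17479322-17479571, minus strand): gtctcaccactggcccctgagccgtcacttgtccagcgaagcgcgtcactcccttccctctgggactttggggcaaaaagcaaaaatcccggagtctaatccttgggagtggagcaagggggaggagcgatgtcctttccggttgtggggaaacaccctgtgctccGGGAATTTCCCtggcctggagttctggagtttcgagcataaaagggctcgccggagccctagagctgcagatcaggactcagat
Cxcl10 (chr14:15988816-15989065, plus strand): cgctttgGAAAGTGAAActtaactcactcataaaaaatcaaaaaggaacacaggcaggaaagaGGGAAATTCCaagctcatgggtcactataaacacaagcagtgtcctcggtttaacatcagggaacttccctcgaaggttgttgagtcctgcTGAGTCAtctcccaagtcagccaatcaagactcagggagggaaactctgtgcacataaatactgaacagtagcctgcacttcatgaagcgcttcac
In Ccl7 the capitals are an AP-1 match 73 to 67 bases before the start. In Cxcl1 they are a pair of kappaB matches that overlap each other, 84 to 75 and 83 to 74 bases before the start. Cxcl10 held all 3 motifs, namely the interferon element core (243 to 234 bases before the start), a kappaB match (187 to 178) and an AP-1 match (96 to 90). Of the low genes, Il6 held the kappaB match GGGATTTTCC 68 to 59 bases before the start and Ccl20 held GGAAAACCCC 89 to 80 bases before it. Cxcl12 and Cx3cl1 held none of the 3 motifs in this window. Among 33465 promoters of the same length, 3.54% held a kappaB match, 6.34% an AP-1 match and 3.41% the interferon element core. A kappaB match was present before Cxcl10, which rose, Cxcl1, which fell, and Il6 and Ccl20, which were too low to test. Ccl7, which rose, had none in this window. Whether the motifs bear on the direction of change was not tested. These are matches of letters and not measured binding sites.

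Cx3cl1, which encodes a membrane-anchored chemokine that is released by cleavage, had 1, 2 and 0 reads in Control and 1, 1 and 0 in STZ. The ratio from 3 and 2 reads was 0.57, with an exact 95% interval of 0.0476 to 4.98. With no filter on low counts, the edgeR adjusted p was 0.758. The interval holds both a large fall and a rise, so this depth did not decide the direction.

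Csf1 and Lif had by far the most reads. Together they made up 87.5% to 90.9% of the reads of the 9 genes in every sample, with Csf1 alone at 61.1% to 67.3% in Control and 60.8% to 62% in STZ. These are shares of reads, which also depend on transcript length, and gene lengths were not used here. The summed level of the 9 genes was 159 to 169 CPM in Control and 186 to 195 CPM in STZ. Ccl2 and Ccl7 together gave 3 to 4 reads in a Control sample and 25 to 48 in an STZ sample, so the largest fold changes belonged to genes with few of the reads.

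Csf1 had 1333, 1263 and 1286 normalized counts in Control and 1446, 1478 and 1435 in STZ. The samples of each group were close together and the groups did not overlap. The log2 fold change was 0.17 (SE 0.05, edgeR adjusted p = 0.00191), a rise of 1.12-fold. In GRCr8 the span of Csf1 overlaps an unnamed locus, and whether the counting used strand is not given in the sources used here, so their reads may not be fully apart. Reads of Csf1r, its receptor, were few, with 0, 5 and 2 in Control and 6, 4 and 7 in STZ, and it was not tested.

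The interleukin-6 family genes Il6 and Lif differed in level. Il6 had 2, 0 and 1 reads in Control and 0, 7 and 1 in STZ, and 7 of its 8 STZ reads came from STZ replicate 2. The ratio from 3 and 8 reads was 2.28 (exact 95% interval 0.547 to 13.3, counting error only), and with no filter the edgeR adjusted p was 0.51. A difference in Il6 was not detectable at this depth.

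Lif had 467, 505 and 572 normalized counts in Control and 652, 700 and 590 in STZ. The lowest STZ sample, replicate 3, lay just above the highest Control sample, replicate 3. The log2 fold change was 0.32 (SE 0.07, edgeR adjusted p = 1.31e-04), or 1.25-fold. Across fits that each left out a sample, the log2 fold change lay between 0.25 and 0.41.

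The receptor chains through which Lif and Il6 act also changed. Il6st, the signal-transducing chain of the whole family, fell from 4232 ± 243 normalized counts in Control (SD, n = 3) to 3053 ± 101 in STZ (SD, n = 3). Its log2 fold change was -0.47 (SE 0.04, edgeR adjusted p = 5.17e-13). Its span in GRCr8 overlaps an unnamed locus, with the same limit on strand as for Csf1. Lifr, which binds Lif, had 102, 89.4 and 115 normalized counts in Control and 72.4, 71.4 and 76.4 in STZ. It fell without overlap, with a log2 fold change of -0.48 (SE 0.14, edgeR adjusted p = 0.00455). Il6r, the ligand-binding chain for Il6, rose instead, from 92.7, 116 and 93.2 normalized counts to 150, 157 and 152. Its log2 fold change was 0.61 (SE 0.12, edgeR adjusted p = 5.18e-05), and its span overlaps that of She, which had 5 to 14 reads per sample. Ligand and receptor transcripts of the Lif pair thus moved in opposite directions.

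Of 27 chemokine and cytokine receptors listed, 17 had a row and 5 were tested, of which Il6r rose, Il6st and Lifr fell, and the other 2 did not pass the threshold. The median log2 fold change of these 5, -0.30, was the value of Ccrl2, which did not pass the threshold (SE 0.29, edgeR adjusted p = 0.406). It is therefore not read as a fall of the receptors. Over all genes tested the median was -0.01, with 25.9% higher and 25.1% lower. With no filter on low counts, 3 receptors were higher and 2 lower. That fit placed 6038 of 18930 genes past the threshold in either direction. Ackr3, the scavenging receptor for Cxcl12, had 1595 ± 11.7 normalized counts in Control (SD, n = 3) and 1569 ± 60.6 in STZ (SD, n = 3), and was not called (log2 fold change -0.03, SE 0.04, edgeR adjusted p = 0.659). Cxcr3, the receptor for Cxcl10, had 2, 4 and 2 reads in Control and 16, 6 and 14 in STZ and was under the filter. Cx3cr1 had 1 read in all 6 samples together. Ccr2, Ccr6, Cxcr2 and Cxcr4, the receptors for Ccl2 and Ccl7, Ccl20, Cxcl1 and Cxcl12, were not analysed here.

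**Figure D3:**
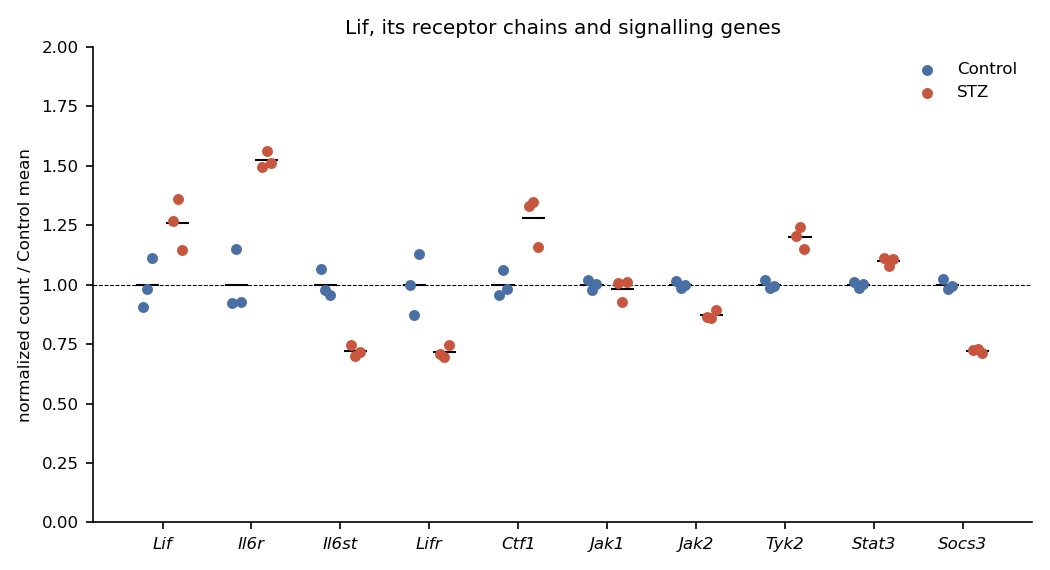
Normalized counts of Lif, its family member Ctf1, receptor chains and signalling genes in each sample, divided by the gene's Control mean (linear axis from 0, short lines for group means). Cntf, a further ligand of the family, is not drawn, and it fell with a log2 fold change of -0.86. Lif, Il6r, Ctf1, Tyk2 and Stat3 lie above 1 in every STZ sample, Il6st, Lifr, Jak2 and Socs3 lie below 1, and Jak1 falls on both sides.

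Downstream of these receptors, 9 of the 10 signalling genes listed were tested, of which 3 rose, 2 fell and 4 did not pass the threshold. Their median log2 fold change was 0.00. For comparison, 25.9% of all genes tested were higher and 25.1% lower, so the count is not read as a result about this list. Socs3, which Stat3 induces and which inhibits signalling from Il6st, had 1015, 972 and 983 normalized counts in Control and 719, 721 and 706 in STZ. It fell without overlap, with a log2 fold change of -0.47 (SE 0.05, edgeR adjusted p = 3.20e-10). Stat3, the transcription factor itself, rose by a log2 fold change of 0.14 (SE 0.04, edgeR adjusted p = 0.0033). Among the kinases, the log2 fold change was 0.26 for Tyk2 and -0.20 for Jak2, both past the threshold. Pias3, an inhibitor of Stat3, rose by 0.35 on the log2 scale. Jak1 had a log2 fold change of -0.02 and did not pass the threshold.

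Of 29 other chemokines listed, 11 had a row and 3 were tested, of which Cxcl16 rose and 2 did not pass the threshold. Among all genes tested, 25.9% were higher. With no filter, 1 was lower besides, in a fit that placed 6038 of 18930 genes past the threshold in either direction. Cxcl16, a membrane-anchored chemokine that is shed like Cx3cl1, had 1382, 1345 and 1259 normalized counts in Control and 1526, 1589 and 1630 in STZ. The groups did not overlap, and the log2 fold change was 0.25 (SE 0.05, edgeR adjusted p = 1.26e-05). Its span overlaps that of Zmynd15 in GRCr8, which had 50 to 77 reads per sample. The neutrophil chemokine Cxcl3 had at most 1 read in a sample and Ccl5 at most 2.

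Of 29 other cytokines, 18 had a row and 10 were tested, of which 5 rose, 2 fell and 3 did not pass the threshold. The shares over all genes tested were 25.9% higher and 25.1% lower. Csf3 is among the 5 and reached the filter's level in 3 STZ but only 2 Control samples. With at least 10 counts in every sample 4 rose and 3 fell. That fit placed 5892 of 11297 genes past the threshold in either direction. Kitlg, the ligand of the receptor Kit, rose from 108 ± 6.65 normalized counts (SD, n = 3) to 214 ± 10.6 (SD, n = 3), a log2 fold change of 0.9995 that lay just under the threshold for differential expression (SE 0.11, edgeR adjusted p = 2.29e-10). Spp1, which encodes osteopontin, a secreted protein of tubular epithelium, rose by a log2 fold change of 0.36 from 19522 normalized counts. Mif, an inhibitor of macrophage migration, fell from 2739 ± 107 normalized counts (SD, n = 3) to 2069 ± 30.5 (SD, n = 3), a log2 fold change of -0.41 (SE 0.04, edgeR adjusted p = 3.74e-11).

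Csf3, Ctf1 and Cntf from the same list were named after their values were seen. Csf3, the granulocyte growth factor, had 7, 13 and 12 reads in Control and 34, 31 and 33 in STZ. In the fit with no filter its log2 fold change was 1.38 (SE 0.30, edgeR adjusted p = 3.38e-05). Ctf1 and Cntf encode further ligands of the Il6st family, and their log2 fold changes were 0.35 and -0.86, both past the adjusted p threshold.

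**Figure D4:**
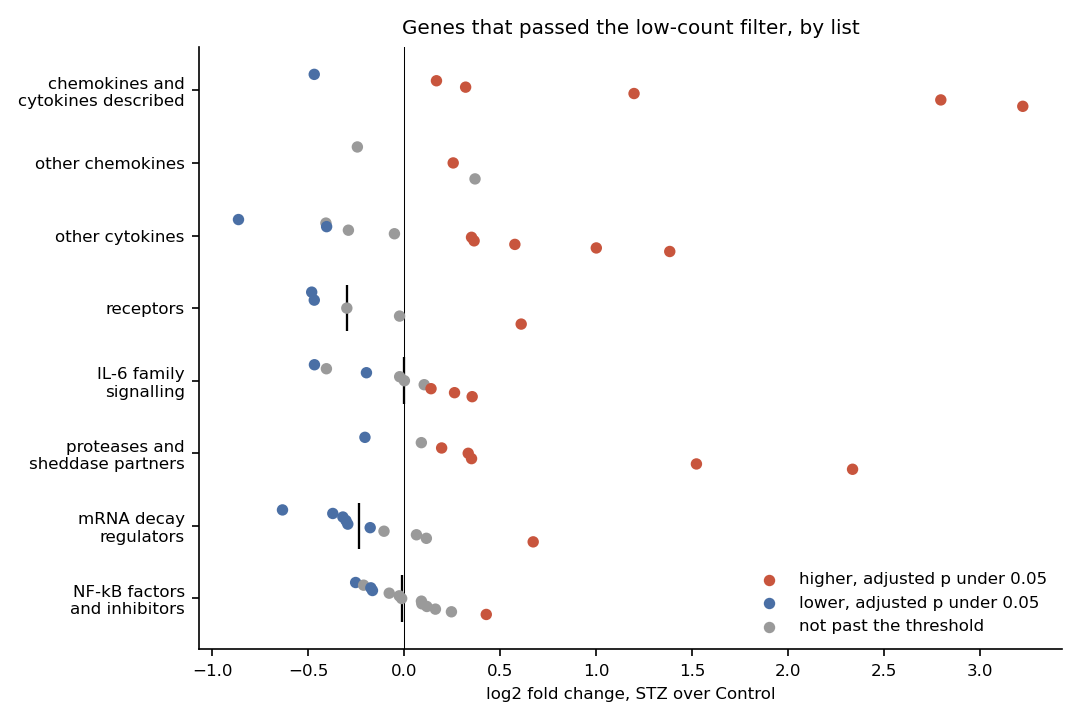
Log2 fold change of STZ over Control for the genes of each list that passed the filter on low counts, coloured by the call at an adjusted p under 0.05; vertical lines are list medians, not drawn for the lists in which a gene reached the filter's level in all samples of STZ but not of Control. Of the mRNA decay regulators 6 of 10 were lower, against 25.1% of all genes tested. Of the proteases 5 of 7 were higher, against 25.9% of all genes tested. That count includes Dpp4, which reached the filter's level in 3 STZ samples and only 1 Control sample. The lists were chosen with earlier results of these data known, so neither count is evidence about its list as a whole.

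Chemokines are cut or released by proteases. Of 8 such proteases and partner genes listed, 7 were tested, of which 5 rose, 1 fell and 1 did not pass the threshold. By the same threshold, 25.9% of all genes tested rose and 25.1% fell. With at least 10 counts in every sample, which leaves out Dpp4, 4 rose and 1 fell. That fit placed 5892 of 11297 genes past the threshold in either direction. Mmp2, a gelatinase that also cleaves Ccl7 and Cxcl12, had 64.5, 45.3 and 41.7 normalized counts in Control and 280, 256 and 223 in STZ. The groups did not overlap, and the log2 fold change was 2.33 (SE 0.14, edgeR adjusted p = 2.18e-18), or 5.04-fold. Dpp4, which trims Cxcl10 and was named after its values were seen, had 11, 3 and 9 reads in Control and 33, 19 and 26 in STZ. It reached the filter's level in 3 STZ samples and 1 Control sample, and with no filter its log2 fold change was 1.52 (SE 0.35, edgeR adjusted p = 8.05e-05). The sheddases of Cx3cl1 and Cxcl16 moved apart, with log2 fold changes of 0.35 for Adam17 (SE 0.04, edgeR adjusted p = 3.50e-09) and -0.21 for Adam10 (SE 0.04, edgeR adjusted p = 3.21e-05). The span of Adam17 overlaps 2 unnamed loci in GRCr8.

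Many chemokine and cytokine mRNAs carry AU-rich elements or stem loops through which RNA-binding proteins shorten or lengthen their life. All 10 such regulators listed were tested, of which 1 rose, 6 fell and 3 did not pass the threshold. Their median log2 fold change was -0.24, against -0.01 over all genes tested, of which 25.9% were higher and 25.1% lower. Hnrnpd, which encodes the AU-rich element binding protein AUF1, fell from 2797 ± 132 normalized counts in Control (SD, n = 3) to 1800.5 ± 57.2 in STZ (SD, n = 3), with a log2 fold change of -0.64 (SE 0.04, edgeR adjusted p = 1.82e-16). Zfp36l1 of the tristetraprolin family fell as well, with a log2 fold change of -0.37 (SE 0.05, edgeR adjusted p = 1.04e-08). Zc3h12a, the endonuclease Regnase-1 that degrades Il6 mRNA, was the gene that rose. It had 75.1, 62.3 and 66 normalized counts in Control and 85.0, 123 and 116 in STZ, a log2 fold change of 0.67 (SE 0.15, edgeR adjusted p = 3.08e-04).

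Of 14 NF-kB factors and inhibitors listed, 13 were tested, of which 1 rose, 3 fell and 9 did not pass the threshold. Their median log2 fold change was -0.01, against -0.01 over all genes tested, of which 25.9% were higher and 25.1% lower. Nfkb2, the precursor of the non-canonical subunit, rose by a log2 fold change of 0.43 (SE 0.06, edgeR adjusted p = 3.72e-07). The canonical subunits Nfkb1 and Rela fell by 0.25 and 0.18 on the log2 scale. Tnfaip3, an inhibitor in the list, also fell, with overlapping groups (log2 fold change -0.17, SE 0.07, edgeR adjusted p = 0.0336). Nfkbia, the inhibitor that NF-kB itself induces, had 347, 341 and 305 normalized counts in Control and 321, 305 and 310 in STZ. Its groups overlapped and it did not pass the threshold (log2 fold change -0.08, SE 0.08, edgeR adjusted p = 0.41).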

How the data were processed

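The authors mapped the reads, single-end and from TruSeq stranded mRNA libraries, to the rat genome (Rnor6) with STAR 2.7.10a, assigned the uniquely mapped ones to genes with featureCounts, and deposited the raw counts, a column for each sample. The annotation and strand setting are not given in the sources used here. Columns were assigned to groups by sample title. Counts were filtered (filterByExpr), scaled (TMM) and tested with edgeR 4.0.16 (quasi-likelihood test) in R 4.3.3, with Benjamini-Hochberg adjustment over 11870 of 18930 rows. The standard error is the absolute log2 fold change over the square root of F. Genes were called higher or lower at an adjusted p under 0.05, and differentially expressed if the log2 fold change also passed 1 in size. Ratios of reads carry exact (Clopper-Pearson) intervals. With 3 samples against 3, the smallest exact permutation p is 0.1, so none is given.

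The genes and lists were chosen with earlier results of these data known. Named from each list were up to 2 rises and 2 falls with the largest change. They came from genes past the threshold, without overlap and averaging 50 or more normalized counts. Each receptor of the listed ligands was named as well. Genes named outside this rule include Csf3, Ctf1, Cntf, Dpp4, Stat3, Jak1, Nfkbia, Tnfaip3, Ccrl2, Cxcl3, Cxcl11 and Ccl5. Alternatives were 3 filters, 3 scalings, DESeq2 1.42.0, edgeR's likelihood ratio test, limma-voom (limma 3.58.1), glmTreat, the replicate block, each sample left out, and, added after seeing the data, thinning. On simulated counts for 11870 genes of the STZ against Control comparison, the test recovered 46 of 50 genes raised and 44 of 50 lowered by 1 on the log2 scale. RefSeq (GRCr8) served for names, neighbours and promoters only.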

Additional observations from a re-analysis of the deposited data

How the results depend on the processing

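With at least 10 counts in every sample, 3 of the genes were higher (5 as reported) and 1 was differentially expressed (3 as reported), because Ccl2 and Ccl7 were not tested. By glmTreat, 2 were differentially expressed. Without 1 sample, 4 to 5 were higher and 2 to 3 differentially expressed; Ccl7 missed the filter without STZ replicate 1 or 3. The 98 refitted log2 fold changes of the 6 genes tested, counted over genes and settings, neither changed sign nor crossed the adjusted p threshold. Fits in which Ccl2 or Ccl7 missed the filter gave no value for that gene, and glmTreat is not among the 98. Over all genes tested, 400 were differentially expressed; this became 249 under the filter of 10 counts and 112 by glmTreat. Of 238 refitted list counts, 227 stayed within 1.5 times. Same-numbered samples had deviations from their group means with correlations of 0.0343, -0.0325 and 0.112 across 10341 genes. Whether they shared a culture or a day is not given. The correlations cannot decide it, because the deviations also hold counting error. Under the replicate block, 5 genes were higher, 1 lower and 3 differentially expressed. Depth limits Ccl20, Cx3cl1 and Il6.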
